A study of Mus musculus with 8 samples.

Results

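In 3T3-L1 cells, transcripts of 35 of the 22798 deposited genes peaked at clonal expansion and were lower at the stages before and after it. They were chosen on the stage means of these same values, as genes with a mean at clonal expansion of at least 200 pseudo-counts that was also at least 6 times the mean plus 1 of each other stage. A pseudo-count is a read count as adjusted by the authors between libraries with edgeR, after which the library totals still differed (122413485 to 151529060). The limits were met by 49 genes, of which 14 were left out by symbol, among them keratins, interleukins and both metallothioneins. The height of the peak is therefore how the genes were picked, and it is described below without a test. The same limits with another stage as the peak, and the same symbols left out, were met by 2 genes when it was proliferation, 4 when it was quiescence and 441 when it was differentiation.

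3T3-L1 is an established line of fibroblast-like mouse preadipocytes (strain given as Swiss albino) that hormones turn into fat cells. RNA-seq was done on 8 libraries, with 2 at each of 4 stages, all from cells kept in DMEM with 10% fetal bovine serum and antibiotics. Proliferating cells were in exponential growth, and quiescent cells had been confluent for 48 hours, both without inducers. Clonal expansion was sampled 10 hours after a cocktail of insulin (5 µg/µl as labelled), dexamethasone (1 µM) and isobutylmethylxanthine (IBMX, 0.25 mM), which was given for 48 hours and followed by insulin alone, and differentiation was sampled 6 days after it. At the times sampled, cells in clonal expansion therefore had the whole cocktail and differentiated cells had insulin without the other 2 agents. The libraries of a stage are numbered as experiments 1 and 2, and nothing in the labels shows that they were separate cultures, so p-values describe library-to-library spread only, and that spread may be technical.

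Clonal expansion is the round of division that confluent preadipocytes go through after the cocktail and before fat cell genes are switched on. Insulin acts through insulin and insulin-like growth factor receptors, dexamethasone through the glucocorticoid receptor, and IBMX blocks phosphodiesterases, so that cyclic AMP builds up and activates protein kinase A and the factor CREB. In this model the early factors C/EBPβ and C/EBPδ are known to respond first and to lead to PPARγ and C/EBPα, which turn on the genes of the mature fat cell. Early responses of this kind can be brief.

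The libraries held totals of 122413485 to 151529060 pseudo-counts. Preadipocyte and fibroblast markers were present throughout, with all 14 tested. They summed to 5195231 to 5680999 in proliferating cells, 8675807 to 9335804 in quiescent cells, 5083463 to 5619025 in clonal expansion and 2474011 to 2808013 in differentiated cells, and 2 rose and 9 fell at clonal expansion against quiescence. The 20 adipocyte markers summed to 13124176 to 13818806 at differentiation against 220459 to 226376 at quiescence. The libraries of a stage differed by a median of 0.149 (proliferation), 0.214 (quiescence), 0.128 (clonal expansion) and 0.129 (differentiation) on the log2 scale over the 14647 genes tested, those that averaged at least 10 pseudo-counts across all 8 libraries. The 35 genes, all of which passed this filter, differed by 0.308, 0.351, 0.248 and 0.343 at the same stages. Pip, Cd33, Akp3, Dio2, Nr4a3 and Nptx1 passed it only through clonal expansion, since they averaged under 10 pseudo-counts over the other 6 libraries, so calls between those stages are counted below with and without these 6 genes. In these bulk samples, more cells that express a gene and more RNA per cell cannot be told apart.

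Together the 35 genes made up 0.353% and 0.339% of all pseudo-counts in the clonal expansion libraries. In the other libraries their share was 0.0423% and 0.0577% (proliferation), 0.0278% and 0.0266% (quiescence), and 0.0370% and 0.0294% (differentiation). The median gene had a mean of 35.9 pseudo-counts in proliferating, 42.4 in quiescent, 1978 in expanding and 43.9 in differentiated cells. All 35 were called at clonal expansion against quiescence, where 68.8% of all genes tested were, which follows from how they were chosen. The heat map of all libraries shows the 2 clonal expansion columns standing above the other 6 for every gene shown.

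**Figure D1:**
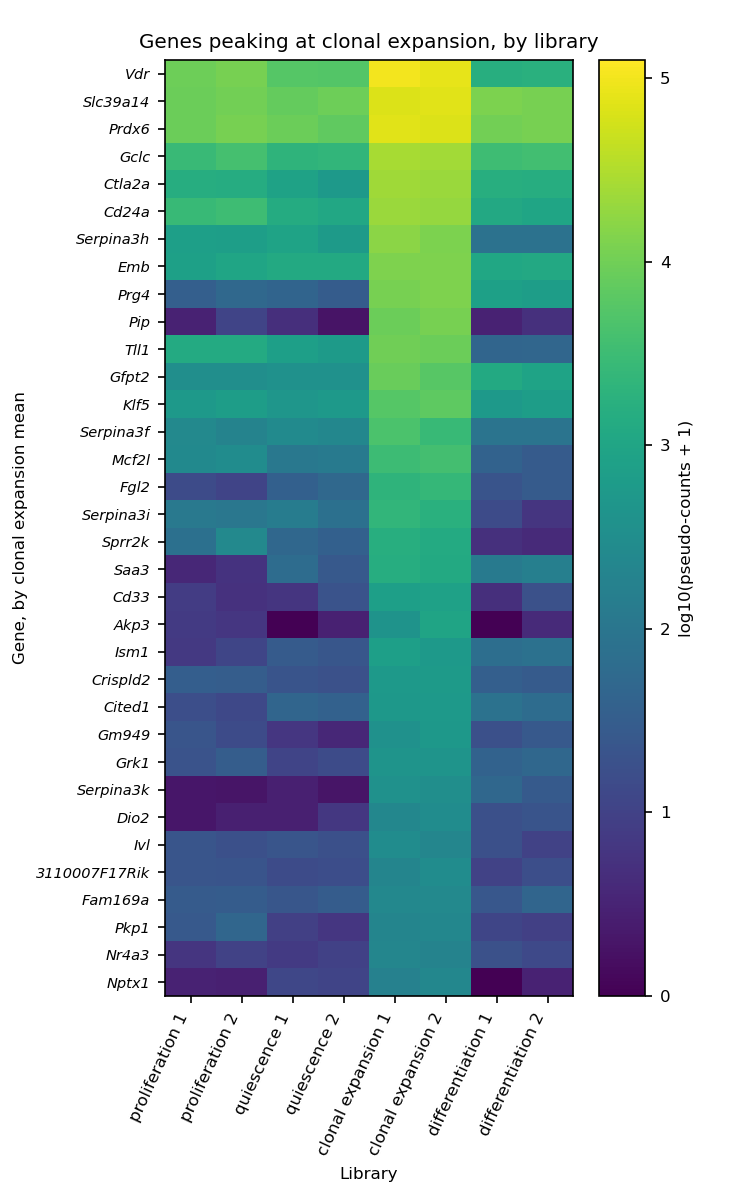
Colour gives log10(pseudo-counts + 1) for 34 of the 35 genes (rows, by their mean at clonal expansion) in the 8 libraries (columns, by stage). Vdr reached 100930.4 and 82431 pseudo-counts at clonal expansion at the top of the map and Nptx1 174 and 229 at its foot, and in each row both clonal expansion libraries are brighter than the other 6.

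The ratio of the mean at clonal expansion to the highest other mean plus 1 had a median of 10.2 and ran from 6.01 (Slc39a14) to 1431 (Pip). It was at least 8 for 25 genes, at least 15 for 10 and at least 50 for 4, namely Pip, Akp3, Cd33 and Fgl2. The next highest stage was proliferation for 12 genes, quiescence for 7 and differentiation for 16, so the levels outside the peak had no common order. Just inside the fold limit stood Slc39a14, Pkp1 (6.02), Prdx6 (6.61) and Gfpt2 (6.78), and just outside it Rrp1b (5.74), Xdh (5.63), Ifi204 (5.57), Foxp1 (5.53) and Srm (5.34). By level, Nptx1 (202 pseudo-counts), Nr4a3 (205), Pkp1 (222), Fam169a (241) and 3110007F17Rik (250.4) were the lowest genes kept, while BC057022 (192), Notum (161), Sprr1b (160), Kcnk10 (137) and Csf3 (105) met the fold and missed the level.

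Promoter sequence is shown first for 5 genes, because they carry matches to elements of the signalling routes that the cocktail uses, or stand for the skin-type genes among the 35. Of the 35 genes, 22 matched a promoter in the RefSeq table (build GRCm38.p6, 250 bases before to 50 after the start), and 11 motifs were searched on both strands. Capitals mark the matches, and positions count back from the start of the gene.
Dio2, chr12:90739039-90739148, minus strand, full cyclic AMP response element TGACGTCA at -95, C/EBP element on the opposite strand at -82 and TATAAA at -30: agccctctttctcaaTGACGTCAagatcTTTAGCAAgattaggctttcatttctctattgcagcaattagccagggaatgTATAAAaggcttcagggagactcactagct
Nr4a3, chr4:48045070-48045169, plus strand, with 4 copies of its short form TGACG on either strand at -231, -213, -205 and -147: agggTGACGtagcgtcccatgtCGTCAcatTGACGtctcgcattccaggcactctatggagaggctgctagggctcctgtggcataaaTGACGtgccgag
Pip, chr6:41847459-41847548, plus strand, AP-1 element at -79 next to the short cyclic AMP element at -72, and TATAAA at -28: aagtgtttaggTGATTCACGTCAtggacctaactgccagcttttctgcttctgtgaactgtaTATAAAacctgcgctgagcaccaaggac
Ivl, chr3:92573736-92573865, minus strand, AP-1 element at -116 and TATAAA at -29: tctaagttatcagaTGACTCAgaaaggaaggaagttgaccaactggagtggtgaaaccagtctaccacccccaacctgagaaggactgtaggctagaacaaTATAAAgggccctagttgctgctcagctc
Sprr2k, chr3:92432382-92432581, plus strand, AP-1 elements at -196 and -182 and TATAAA at -29: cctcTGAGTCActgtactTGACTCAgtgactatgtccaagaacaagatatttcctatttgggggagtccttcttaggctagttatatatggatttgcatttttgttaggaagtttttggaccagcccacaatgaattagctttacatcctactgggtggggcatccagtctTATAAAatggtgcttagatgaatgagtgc

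Among the 22 promoters, the AP-1 element TGANTCA was found in 6 (27.3%), those of Ctla2a, Fgl2, Gfpt2, Ivl, Pip and Sprr2k, against 5.46% of the 11440 promoters of all genes tested and 7.93% of all 27025 in the table. The TATA box TATAAA was found in 7 (31.8%), those of Cited1, Ctla2a, Dio2, Ivl, Pip, Serpina3f and Sprr2k, against 7.75% and 14.2%. Matches were counted at any position in the window. The match was at -13 in Cited1, at -190 in Ctla2a and at -186 on the opposite strand in Serpina3f, unlike in the 4 promoters printed above. The C/EBP element TTGCNNAA was in 4 (18.2%, against 8.45% and 10.8%), those of Dio2, Gfpt2, Saa3 and Serpina3f. The full cyclic AMP element was in the Dio2 promoter alone (4.55%, against 3.18% and 1.88%), and its short form TGACG, which lies inside the full one, was in 6 (27.3%, against 30.6% and 21.0%). The E-box CACGTG was found once, in Crispld2 (against 9.81% and 7.24%), and the amino acid response element TGATGNAA once, in Fgl2 (against 2.30% and 4.06%). No match was found to the glucocorticoid, NF-kappaB and serum response elements or to the E2F element TTTGGCGC, each of which is in under 1% of promoters. The 22 promoters also had a lower GC content, with a median of 52% against 60.3% for the 11440, and an observed to expected CpG ratio of 0.310 against 0.743. These are counts of letters in a fixed window and were not tested.

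**Figure D2:**
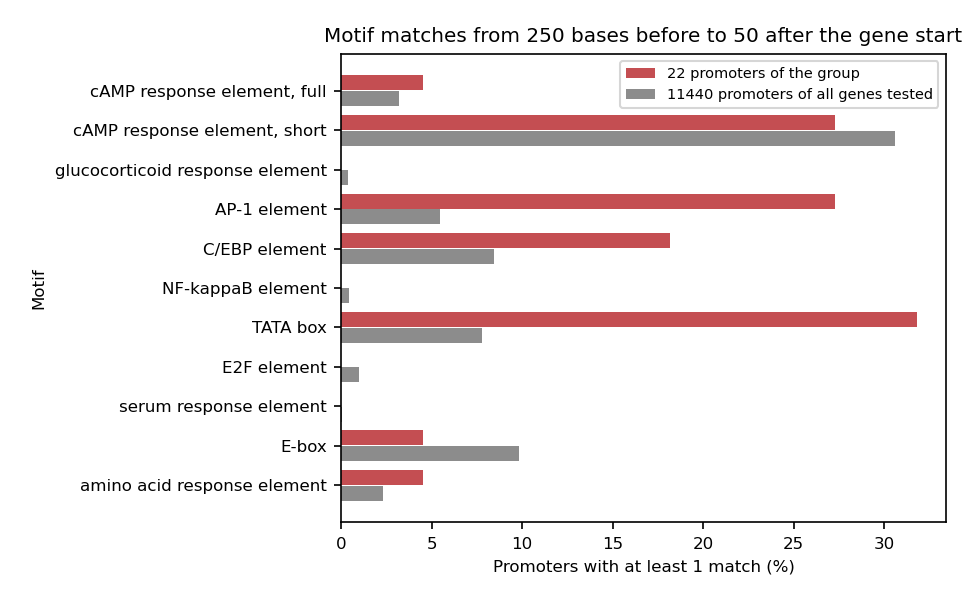
Bars give the percentage of promoters with at least 1 match to each of 11 motifs, red for the 22 promoters of genes peaking at clonal expansion and grey for the 11440 promoters of all genes tested. The red bar is longest for the TATA box (31.8% against 7.75%), followed by equal red bars for the AP-1 element (27.3% against 5.46%) and the short cyclic AMP element (27.3% against 30.6%).

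Proteases and their inhibitors formed the first group, with Tll1, Ctla2a and 4 Serpina3 genes. Positions below are those of the deposited table (mm9). Tll1 (chr8:66493567-66684790), a tolloid-like metalloprotease that cuts procollagens and chordin, had 1298 and 1302 pseudo-counts in proliferating cells, 751 and 612 in quiescent cells, 9775 and 8849 in clonal expansion, and 44.8 and 47.7 in differentiated cells. Differentiated cells thus held the least Tll1 of any stage. Ctla2a (chr13:61035516-61037986), an inhibitor of cathepsin-type cysteine proteases, had 1498 and 1408 pseudo-counts in proliferating cells, 859 and 577 in quiescent cells, 23949.7 and 21855 in clonal expansion, and 1607 and 1533 in differentiated cells.

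Of the Serpina3 genes, mouse relatives of human alpha-1-antichymotrypsin that inhibit serine proteases, 4 were among the 35. Serpina3h (chr12:105486106-105492615) had 746 and 721 pseudo-counts in proliferating cells, 889 and 611 in quiescent cells, 16575 and 12594 in clonal expansion, and 82.9 and 82.2 in differentiated cells. Serpina3f (chr12:105452843-105459339) had 254 and 194 pseudo-counts in proliferating cells, 274 and 231 in quiescent cells, 4509.8 and 2704 in clonal expansion, and 90.0 and 92.0 in differentiated cells. Serpina3i (chr12:105501332-105507575) had 114 and 103 pseudo-counts in proliferating cells, 137 and 76.9 in quiescent cells, 2229 and 1726 in clonal expansion, and 13.5 and 5.20 in differentiated cells. These neighbours shared a pattern in which differentiated cells were below the uninduced ones. Serpina3k (chr12:105576696-105583949) differed, with 1.04 and 0.916 pseudo-counts in proliferating cells, 1.87 and 0.903 in quiescent cells, 386 and 327 in clonal expansion, and 50.3 and 26.9 in differentiated cells, so that its differentiated libraries were above the uninduced ones.

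The region on chromosome 12 that holds them lists 10 Serpina3 genes (chr12:105352843-105683949 with the flanks used), of which 8 were tested, and at clonal expansion against quiescence all 4 tested genes outside the 35 rose (limma, Benjamini-Hochberg adjustment), where 34.4% of all genes tested rose. Serpina3n had 39549 and 28879 pseudo-counts at clonal expansion and 594 and 549.8 at quiescence (log2 fold change of value + 1, log2FC, 5.88, SE 0.238, adjusted p = 8.94e-08), and at differentiation it had 8539 and 7874, too many for the fold limit. A log2FC of value + 1 understates differences of genes near 0. Serpina3m likewise had 1475 and 1136 at clonal expansion against a mean of 11.6 at quiescence (log2FC 6.70). The other two were Serpina3g (log2FC 1.94) and Serpina3c (1.71). Between differentiation and quiescence the cluster divided: Serpina3f (log2FC -1.46), Serpina3g (-3.42), Serpina3h (-3.14) and Serpina3i (-3.45), which adjoin each other, fell, and Serpina3c (2.60), Serpina3k (4.02), Serpina3m (5.15) and Serpina3n (3.84) rose. These genes are similar in sequence, and between 2.33% and 4.85% of the 100-base stretches in the transcripts of the 4 were also found in other genes, mostly of the cluster, so part of their reads could be assigned to a neighbour. Serpina3f and Serpina3g also overlap in the table's coordinates.

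**Figure D3:**
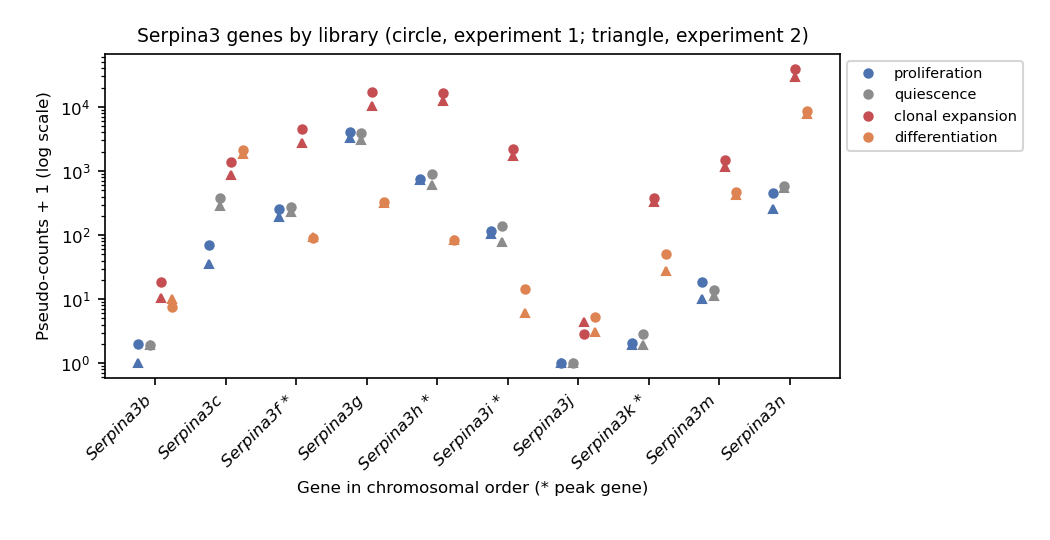
Points give pseudo-counts + 1 on a log axis for 10 Serpina3 genes in chromosomal order, by stage (colour) and experiment (circle, 1; triangle, 2), with a star by the 4 genes of the 35. For all 8 tested genes clonal expansion stands above quiescence, and differentiation is below quiescence for Serpina3f, Serpina3g, Serpina3h and Serpina3i and above it for the rest.

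Other secreted proteins had over 1000 pseudo-counts at the peak and mostly under 100 outside it. Prg4 (chr1:152296542-152313295), the joint lubricant lubricin, had 34.7 and 53.0 pseudo-counts in proliferating cells, 43.3 and 29.5 in quiescent cells, 11369.9 and 12834 in clonal expansion, and 778 and 679 in differentiated cells, so that its differentiated libraries were intermediate. Pip (chr6:41797548-41802061), prolactin-induced protein, a glycoprotein of exocrine fluids such as saliva, had 2.12 and 10.3 pseudo-counts in proliferating cells, 3.76 and 0.876 in quiescent cells, 9166 and 11492 in clonal expansion, and 2.13 and 4.11 in differentiated cells. Of the 35 genes it had the largest ratio, and outside clonal expansion no library exceeded 10.3. Fgl2 (chr5:20878491-20884204), a fibrinogen-like protein that can act as a prothrombinase, had 13.5 and 10.1 pseudo-counts in proliferating cells, 35.1 and 51.1 in quiescent cells, 2121 and 2536 in clonal expansion, and 20.1 and 27.8 in differentiated cells. Saa3 (chr7:53967368-53971046), an acute phase serum amyloid A protein, had 2.68 and 4.61 pseudo-counts in proliferating cells, 63.4 and 26.0 in quiescent cells, 1514 and 1257 in clonal expansion, and 127 and 155 in differentiated cells. Saa3 was thus higher at each stage after the first than at proliferation, and its 2 quiescent libraries were far apart.

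Lower secreted genes followed the same outline. Ism1 (chr2:139503914-139584317), isthmin 1, described in mice as a secreted factor of fat tissue, had 6.06 and 10.5 pseudo-counts in proliferating cells, 28.6 and 22.7 in quiescent cells, 744 and 566 in clonal expansion, and 68.4 and 77.1 in differentiated cells. Crispld2 (chr8:122516370-122576693), a secreted protein with cysteine-rich and LCCL domains, had 32.3 and 31.1 pseudo-counts in proliferating cells, 20.5 and 17.5 in quiescent cells, 555 and 602 in clonal expansion, and 33.9 and 27.5 in differentiated cells. Nptx1 (chr11:119400033-119409134), a pentraxin known from synapses, had 2.07 and 1.84 pseudo-counts in proliferating cells, 11.1 and 10.2 in quiescent cells, 174 and 229 in clonal expansion, and 0.0128 and 2.05 in differentiated cells. For Nptx1 the differentiated libraries were the lowest with proliferating ones, and for Ism1 they were the highest outside the peak.

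Among nuclear proteins, Vdr (chr15:97684858-97738727), the receptor for the active form of vitamin D, had 9275 and 11136 pseudo-counts in proliferating cells, 5602 and 5483 in quiescent cells, 100930.4 and 82431 in clonal expansion, and 1542 and 1751 in differentiated cells. Its differentiated libraries were the lowest of all stages. Its partner Rxra, the retinoid X receptor with which it binds DNA, rose at clonal expansion against quiescence as well (51882 and 51161 against 34092 and 35056 pseudo-counts, log2FC 0.58, adjusted p = 0.000375), beside a log2FC of 4.04 for Vdr itself. Of the 3 other partners tested, Rxrg fell (log2FC -1.29), and Rxrb and Cyp27b1 (log2FC -0.14), which makes active vitamin D, were not called. Cyp24a1, the vitamin D 24-hydroxylase and a well-known target of Vdr, had at most 3.71 pseudo-counts in any library and was not tested.

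Klf5 (chr14:99697910-99712628), a Krüppel-like zinc finger factor that mouse work places between C/EBPβ and PPARγ in fat cell formation, had 561 and 689 pseudo-counts in proliferating cells, 473 and 565 in quiescent cells, 5635 and 6852 in clonal expansion, and 572 and 679 in differentiated cells. Outside the peak its proliferating libraries overlapped both the quiescent and the differentiated ones. Of the 14 other Krüppel-like factors tested, 3 rose, 6 fell and 5 were not called at clonal expansion against quiescence, with log2FC from -2.16 to 1.51, and none reached the fold limit. Nr4a3 (chr4:48064120-48096224), a nuclear receptor known to respond to cyclic AMP, had 5.22 and 9.31 pseudo-counts in proliferating cells, 6.46 and 8.61 in quiescent cells, 215 and 194 in clonal expansion, and 17.2 and 12.4 in differentiated cells. Its relatives Nr4a1 (log2FC 1.96) and Nr4a2 (0.87) rose too, beside 4.60 for Nr4a3. Cited1 (chrX:99442776-99447108), a coactivator that binds CBP and p300, had 15.5 and 11.9 pseudo-counts in proliferating cells, 45.2 and 36.9 in quiescent cells, 525 and 559 in clonal expansion, and 82.0 and 63.7 in differentiated cells. Of its relatives at clonal expansion against quiescence, Cited2 fell (log2FC -1.16) and Cited4 was not called (log2FC 1.78, adjusted p = 0.0726).

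Enzymes of redox and sugar metabolism formed the next group. Prdx6 (chr1:163170243-163181297), a peroxiredoxin that reduces phospholipid hydroperoxides, had 9213 and 11084 pseudo-counts in proliferating cells, 8985 and 7116 in quiescent cells, 75135 and 67735 in clonal expansion, and 10530.2 and 11091 in differentiated cells. Of the 5 other peroxiredoxins, 4 rose and 1 fell at clonal expansion against quiescence, with log2FC between -0.52 and 0.85. Gclc (chr9:77602342-77642296), the catalytic subunit of the rate-limiting enzyme of glutathione synthesis, had 2883 and 3946 pseudo-counts in proliferating cells, 2103 and 2274 in quiescent cells, 26931 and 25253 in clonal expansion, and 3293 and 3608 in differentiated cells. Its regulatory partner Gclm had 4113 and 3585 pseudo-counts at clonal expansion and 2840.3 and 2620.0 at quiescence (log2FC 0.49, adjusted p = 0.00429), beside a log2FC of 3.58 for Gclc itself. Gss, which completes glutathione, was not called (log2FC 0.29, adjusted p = 0.0672).

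Gfpt2 (chr11:49607657-49652122), which starts the hexosamine pathway that feeds glycosylation, had 324 and 331 pseudo-counts in proliferating cells, 371 and 382 in quiescent cells, 8411 and 6080.4 in clonal expansion, and 1232 and 904 in differentiated cells. Its more widely used form Gfpt1 had 35142 and 41079.8 at clonal expansion against 21332 and 33894 at quiescence (log2FC 0.50, adjusted p = 0.0325). Dio2 (chr12:91962992-91976878), the deiodinase that turns thyroxine into the active thyroid hormone and is known as cyclic AMP-responsive in brown fat, had 1.04 and 1.86 pseudo-counts in proliferating cells, 1.79 and 5.62 in quiescent cells, 224 and 306 in clonal expansion, and 16.9 and 20.6 in differentiated cells. The other deiodinases, Dio1 and Dio3, were at most 3.08 in any library. Akp3 (chr1:89021583-89024487), an intestinal alkaline phosphatase, had 6.20 and 5.53 pseudo-counts in proliferating cells, 0 and 1.88 in quiescent cells, 416 and 932 in clonal expansion, and 0.0190 and 3.07 in differentiated cells, and its peak libraries were the farthest apart of the 35 genes (1.16 on the log2 scale). Alpl, the tissue-nonspecific form, rose at clonal expansion against quiescence as well (6513 and 5349 against 98.1 and 72.9, log2FC 6.11, adjusted p = 1.34e-07).

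Cell surface proteins included a metal importer. Slc39a14 (chr14:70703274-70751231), the zinc and iron importer ZIP14, had 9023 and 10131 pseudo-counts in proliferating cells, 7739.8 and 9377 in quiescent cells, 69083 and 74193 in clonal expansion, and 12445 and 11407 in differentiated cells. Of the 12 other ZIP transporters tested, 4 rose, 1 fell and 7 were not called at clonal expansion against quiescence, and the largest of these rises was 1.40 on the log2 scale. Cd24a (chr10:43298975-43304071), a lipid-anchored glycoprotein used in mice to mark fat cell progenitors, had 2738 and 3314 pseudo-counts in proliferating cells, 1373 and 1168 in quiescent cells, 21581 and 19466 in clonal expansion, and 1186 and 1014 in differentiated cells. Emb (chr13:118009380-118063222), embigin, a chaperone of monocarboxylate transporters, had 777 and 988 pseudo-counts in proliferating cells, 1249.6 and 1239 in quiescent cells, 12707 and 12748 in clonal expansion, and 1116 and 1169 in differentiated cells. Its relative basigin (Bsg), with the same role, had 89257 and 83914 at clonal expansion and 67401 and 54979 at quiescence (log2FC 0.51, adjusted p = 0.0146).

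Cd33 (chr7:50782826-50788541), a sialic acid-binding lectin known from myeloid cells, had 6.97 and 4.27 pseudo-counts in proliferating cells, 5.22 and 19.0 in quiescent cells, 763 and 812 in clonal expansion, and 3.82 and 17.4 in differentiated cells. The lower clonal expansion library was 38.1 times the highest other library plus 1. Of the 17 macrophage and blood markers in the table, 9 reached a mean of 10, and at clonal expansion against quiescence 3 rose and 3 fell. The risers were Cd68 (402 and 387 against 287 and 237, log2FC 0.59), Mrc1 (37.6 and 52.2 against 22.9 and 24.1, log2FC 0.89) and Itgax (log2FC 1.09), and Cd68 and Mrc1 had their highest mean at clonal expansion. Lyz1 (-0.65), Lyz2 (-1.20) and Aif1 (-2.94) fell. The list, most of which is Lyz2 and Cd14, summed to 5003 to 5743 in proliferating cells, 5741 to 7422 in quiescent cells, 3558 to 4760 in clonal expansion and 1495 to 1564 in differentiated cells. The pan-leukocyte gene Ptprc was at most 2.73 and the myeloid adaptor Tyrobp at most 1.52 in any library, and the T cell gene Cd3e and the globin gene Hba-a1 were below 1 throughout. Both related lectins that were tested, Siglec1 (log2FC -3.03) and Siglecg (-3.08), fell at clonal expansion against quiescence.

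Signalling proteins were few. Mcf2l (chr8:12915893-13020509), an exchange factor that activates small GTPases, had 258 and 305 pseudo-counts in proliferating cells, 109 and 124 in quiescent cells, 3136 and 3724 in clonal expansion, and 38.3 and 28.6 in differentiated cells, and its differentiated libraries were the lowest. Grk1 (chr8:13405081-13421949), a G protein-coupled receptor kinase of photoreceptors, had 19.5 and 31.6 pseudo-counts in proliferating cells, 10.2 and 13.4 in quiescent cells, 429 and 445 in clonal expansion, and 38.3 and 49.5 in differentiated cells. Of the 4 other kinases of its family tested, 2 rose, 1 fell and 1 was not called, with log2FC from -1.18 to 0.63.

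Genes of stratified epithelium appeared in these fibroblast-like cells. Sprr2k (chr3:92236504-92237849) and Ivl (chr3:92374824-92377637) encode precursors of the cornified envelope of skin. Sprr2k had 74.9 and 250.5 pseudo-counts in proliferating cells, 49.3 and 35.4 in quiescent cells, 1569 and 1314 in clonal expansion, and 4.20 and 3.10 in differentiated cells, with the 2 proliferating libraries far apart. Ivl had 20.6 and 16.5 pseudo-counts in proliferating cells, 21.4 and 16.6 in quiescent cells, 295 and 222 in clonal expansion, and 16.7 and 9.31 in differentiated cells. Pkp1 (chr1:137767972-137815601), a desmosomal plaque protein, had 25.6 and 46.2 pseudo-counts in proliferating cells, 8.40 and 5.50 in quiescent cells, 210.3 and 234 in clonal expansion, and 10.5 and 8.25 in differentiated cells. Of the 12 other Sprr genes listed, 3 were tested, and all 3 rose at clonal expansion against quiescence. Among them, Sprr1b had 177 and 142 against 0 and 0.936 (log2FC 6.84), and Sprr1a 152 and 164 against 39.1 and 31.4 (log2FC 2.14). Sprr1b had at most 4.86 pseudo-counts in any library outside clonal expansion, so it passed the filter only through that stage.

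Keratins of stratified epithelium that met the limits and were left out by symbol had the same peak. Krt13 had 583 and 547 pseudo-counts in proliferating cells, 138 and 82.8 in quiescent cells, 8426 and 7357 in clonal expansion, and 456 and 249.7 in differentiated cells. Krt16 had 1222 and 1150.1 and Krt23 615 and 536 at clonal expansion, against 10.6 and 4.52 (Krt16) and 0.348 and 0.929 (Krt23) at quiescence. Of 13 general epithelial markers, 6 reached a mean of 10, of which 1 rose and 1 fell at clonal expansion against quiescence, and the list summed to 310 to 313 in proliferating cells, 85.0 to 105 in quiescent cells, 217 to 237 in clonal expansion and 1685 to 3367 in differentiated cells. Epcam was below 1 in all libraries. Krt5, with 101 and 96.4 in proliferating and 27.3 and 29.1 in quiescent cells, fell to 0 after rounding in both clonal expansion libraries (log2FC -4.87 against quiescence). Krt19 rose at clonal expansion against quiescence (194 and 187 against 35.2 and 18.6, log2FC 2.85). Of the other plakophilins, Pkp4 rose (log2FC 1.26) and Pkp2 (-1.17) and Pkp3 (-1.22) fell.

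For the less studied genes, Gm949 (chr18:47081469-47093876) had 20.8 and 13.7 pseudo-counts in proliferating cells, 5.54 and 2.72 in quiescent cells, 381 and 527 in clonal expansion, and 16.9 and 25.7 in differentiated cells. The claudin-like gene 3110007F17Rik (chrX:120217168-120256902), named Cldn34c1 by RefSeq, had 20.8 and 20.5 pseudo-counts in proliferating cells, 13.6 and 15.4 in quiescent cells, 205 and 296 in clonal expansion, and 8.95 and 15.9 in differentiated cells. Fam169a (chr13:97837242-97899381) had 27.5 and 29.2 pseudo-counts in proliferating cells, 21.6 and 29.4 in quiescent cells, 234 and 247 in clonal expansion, and 23.8 and 44.6 in differentiated cells. The last 2 need care: 25.2% of the 100-base stretches of Fam169a were shared with its neighbour Nsa2 and 14.5% of those of 3110007F17Rik with close copies, and the share was 20.8% for Emb (with Gm17509) and 19.5% for Ctla2a (mostly with Gm49391). Nsa2 had means of 5195 pseudo-counts at clonal expansion and 5656 at quiescence, and the part of shared reads in the Fam169a values was not tested. The libraries are unstranded, so reads from overlapping genes cannot be separated either. Fgl2 lies within Ccdc146, which fell at clonal expansion against quiescence (log2FC -2.05). In the deposited coordinates the interval of Cdkn2d, which was not called (log2FC -0.21), also overlaps Gclc. That interval was not checked against another annotation, so a mixing of reads in the Gclc values is not shown.

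Counts grow with transcript length, and per kilobase of the longest annotated transcript the order of the peak levels changed. Prdx6, with 27926 pseudo-counts per kilobase at clonal expansion, stood above Vdr (20979.6), which was followed by Ctla2a (16680.4) and Slc39a14 (14000). The lowest genes on this scale were Nr4a3 (35.8) and Nptx1 (38.7).

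Whether the genes were back at their earlier level 6 days after the cocktail was asked by the comparison of differentiation with quiescence. The rule did not use this contrast, but it kept both stage means under a limit set by the clonal expansion mean, so the comparison is not fully independent of the choice. Of the 29 genes that averaged at least 10 outside clonal expansion, 14 rose, 8 fell and 7 were not called (limma on log2(value + 1), two-sided, Benjamini-Hochberg adjustment over 14647 genes). That is 75.9% called, where 66.3% of all genes tested were, of which 33.4% rose and 32.9% fell. Over all 35 genes the counts were 15 higher, 9 lower and 11 not called (68.6% called). The median log2FC was 0.40 over the 35 genes and 0.01 over all genes tested. Over the 35, leaving out single libraries gave 12 to 16 rises and 8 or 9 falls, and with the same total per library, which moves the median of all genes by -0.23, both directions numbered 11.

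The largest rises at differentiation were in Prg4 (778 and 679 pseudo-counts against 43.3 and 29.5 at quiescence, log2FC 4.31, SE 0.246, adjusted p = 1.99e-07) and Serpina3k (50.3 and 26.9 against 1.87 and 0.903, log2FC 4.02). Gm949 (log2FC 2.15) and Grk1 (1.81) followed, and then Saa3 (1.76), Gfpt2 (1.48), Ism1 (1.48) and Ctla2a (1.16). In each of these genes both differentiated libraries were above both quiescent ones. Dio2 had a log2FC of 2.19, but it averaged 7.96 pseudo-counts outside the peak and passed the filter only through clonal expansion. Smaller rises were called for Cited1 (0.81), Crispld2 (0.66), Gclc (0.66), Slc39a14 (0.48) and Prdx6 (0.43). With the same total per library, the calls of Slc39a14 (log2FC 0.25), Cited1 (0.58), Crispld2 (0.44) and Prdx6 (0.20) were lost. Quantile normalization also removed those of Cited1 (0.55), Crispld2 (0.51) and Prdx6 (0.29). The call of these last 3 rested on single libraries as well. It was lost without quiescence 2 for Cited1 (log2FC 0.67), Crispld2 (0.56) and Prdx6 (0.27), without differentiation 1 for all 3 (0.63, 0.52 and 0.47), without differentiation 2 for Prdx6 (0.40), and for Crispld2 also without quiescence 1 (0.77) or either clonal expansion library (0.66).

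The largest falls at differentiation were in Tll1 (44.8 and 47.7 against 751 and 612 at quiescence, log2FC -3.84, SE 0.149, adjusted p = 1.85e-08) and Serpina3i (13.5 and 5.20 against 137 and 76.9, log2FC -3.45). Sprr2k (-3.21), Serpina3h (-3.14), Mcf2l (-1.78), Vdr (-1.75, adjusted p = 1.26e-06) and Serpina3f (-1.46) fell as well. Nptx1, which like Dio2 passed the filter only through clonal expansion, had a log2FC of -2.73. Fgl2 also fell (-0.82), and its call was lost without quiescence 2 (-0.55), differentiation 1 (-0.59) or either clonal expansion library (-0.82). Vdr thus ended below its level before the cocktail, while Prg4 ended above it.

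**Figure D4:**
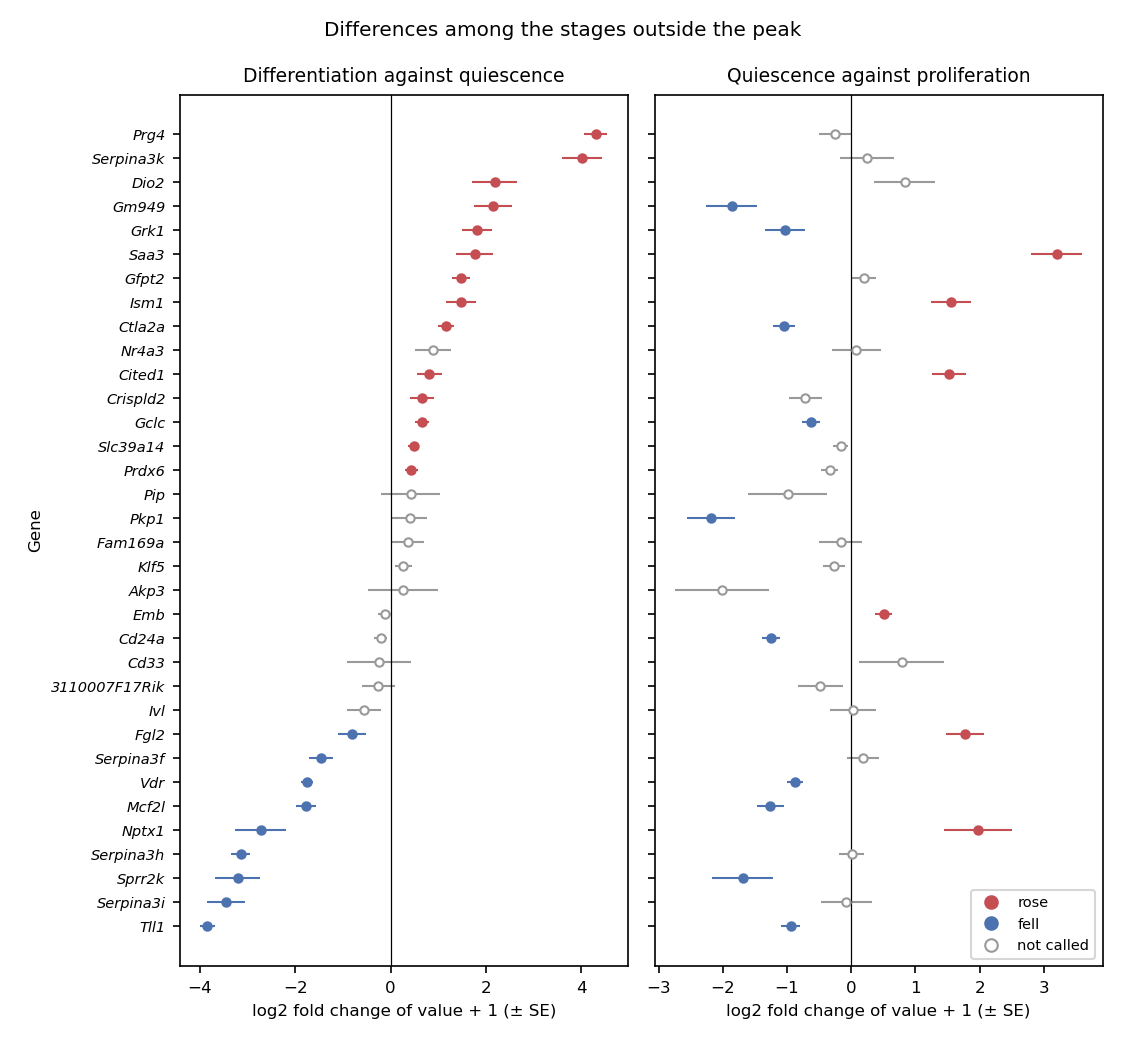
Points give the log2 fold change of value + 1 with its standard error for 34 of the 35 genes, differentiation against quiescence on the left and quiescence against proliferation on the right, red for genes that rose, blue for genes that fell and open grey for genes not called. Differentiation against quiescence runs from 4.31 (Prg4) to -3.84 (Tll1), with 14 red and 9 blue points, and quiescence against proliferation has 6 red and 10 blue points. The points of Pip, Cd33, Akp3, Dio2, Nr4a3 and Nptx1 rest on averages under 10 pseudo-counts outside clonal expansion.

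Between quiescence and proliferation, both before the cocktail, 5 of the 29 genes that averaged at least 10 outside clonal expansion rose, 11 fell and 13 were not called, so that 55.2% were called where 23.7% of all genes tested were (11.9% higher and 11.8% lower). Over all 35 genes, 6 were higher and 11 lower (48.6%). Both stage means had to lie under the limit of the rule here as well. Saa3 rose most, with 63.4 and 26.0 at quiescence against 2.68 and 4.61 at proliferation (log2FC 3.20, SE 0.396, adjusted p = 0.000489). Fgl2 (log2FC 1.77), Ism1 (1.55), Cited1 (1.52) and Emb (0.51) rose too, and Nptx1, with 11.1 and 10.2 at quiescence against 2.07 and 1.84 at proliferation, had a log2FC of 1.98. Falls were in Pkp1 (-2.18), Gm949 (-1.86), Sprr2k (-1.69), Mcf2l (-1.26), Cd24a (-1.25), Ctla2a (-1.04), Grk1 (-1.03), Tll1 (-0.94), Vdr (-0.87) and Gclc (-0.63).

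Single libraries mattered in this comparison. Without proliferation 2, which was the higher proliferating library for 21 of the 35 genes, the calls of Sprr2k (log2FC -0.83), Gclc (-0.40) and Grk1 (-0.70) were lost. Without proliferation 1 the call of Emb was lost (0.33), and without quiescence 1 Prdx6 was called as a fall (-0.51). Grk1 lost its call without quiescence 1 (-0.85) or any clonal expansion or differentiation library, and Sprr2k without quiescence 2 (-1.46) or either differentiation library. With no filter on low values 3 of the 35 rose and 5 fell, and over all genes tested 1757 were called in place of 3472; without proliferation 2 it was 1304.

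Differentiation was also set against proliferation. Of the 29 genes that averaged at least 10 outside clonal expansion, 10 rose, 9 fell and 10 were not called, 65.5% where 67.8% of all genes tested were called (34.5% higher and 33.3% lower). Over all 35 genes 12 were higher and 9 lower (60.0%), with a median log2FC of 0.03 over the 35 and 0.02 over all. This comparison uses the same differentiated libraries as the one with quiescence. Saa3 (127 and 155 at differentiation against 2.68 and 4.61 at proliferation, log2FC 4.96, adjusted p = 1.87e-06) rose most, followed by Serpina3k (4.26), Prg4 (4.05), Ism1 (3.03) and Cited1 (2.33). Sprr2k (4.20 and 3.10 against 74.9 and 250.5, log2FC -4.90, adjusted p = 7.4e-06) fell most, then Tll1 (-4.78), Serpina3i (-3.53), Serpina3h (-3.14), Mcf2l (-3.05) and Vdr (-2.63). The remaining rises were Gfpt2 (1.68), Fgl2 (0.95), Grk1 (0.78), Emb (0.38) and Slc39a14 (0.32), and the remaining falls Pkp1 (-1.78), Cd24a (-1.46) and Serpina3f (-1.28). With the same total per library, the calls of Fgl2 (0.69), Grk1 (0.52), Emb (0.11) and Slc39a14 (0.04) were lost. With quantile normalization, those of Grk1 (0.52) and Slc39a14 (0.19) were lost. Dio2 and Nr4a3, which passed the filter only through clonal expansion, had log2FC of 3.02 and 0.96. Without differentiation 2 the higher genes numbered 7 of the 35, because Nr4a3 (1.19), Fgl2 (0.73), Grk1 (0.60), Emb (0.35) and Slc39a14 (0.38) lost their calls, and each of these 5 was also lost without at least 1 other library.

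The plot of relatives sets each gene beside the tested members of its family or its partners at clonal expansion against quiescence. Of the 20 families with a tested relative, 16 had none above 2 on the log2 scale, and the rest were the Serpina3, small proline-rich, serum amyloid A and alkaline phosphatase genes. Smaller rises of relatives were called within the 16, among them 4 of 5 peroxiredoxins and both NR4A receptors. The families were written down after the genes were known.

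**Figure D5:**
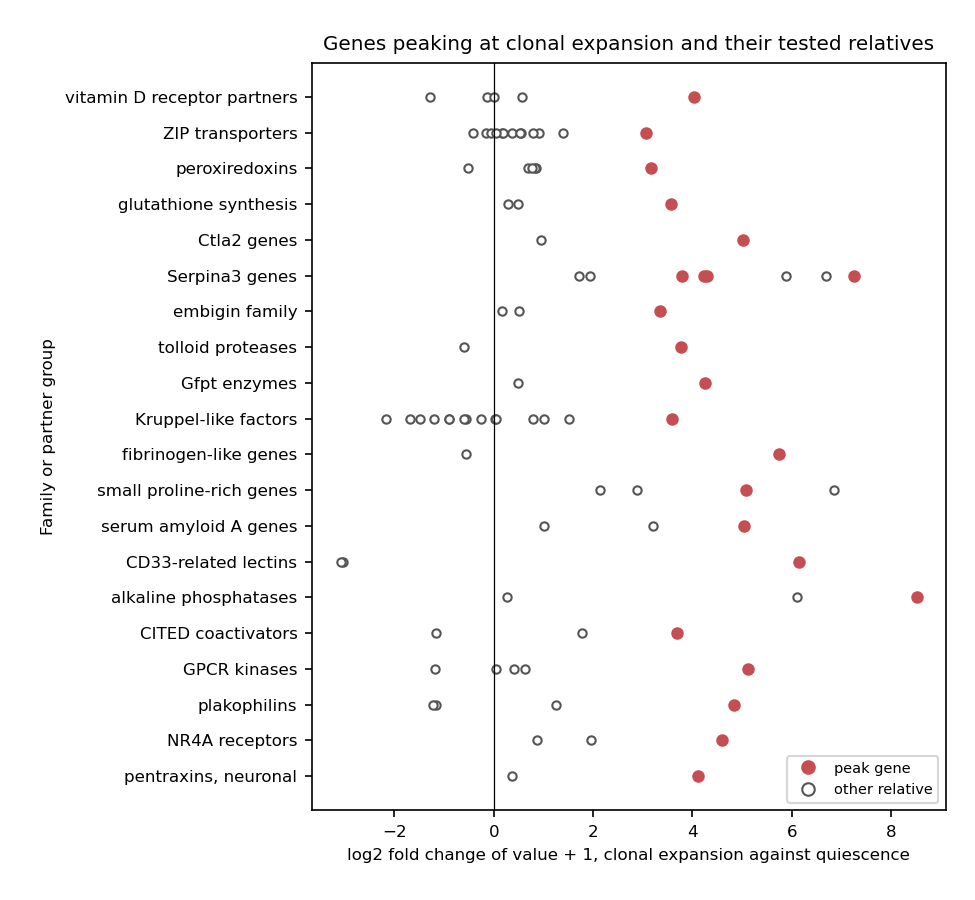
Points give the log2 fold change of value + 1 at clonal expansion against quiescence by family or partner group, red for the genes of the 35 and open for their other tested relatives. The open points lie left of the red ones in all groups but the Serpina3 genes and the small proline-rich genes, where Serpina3n (5.88) and Serpina3m (6.70) stand above 3 of the 4 red points and Sprr1b (6.84) above Sprr2k.

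Few of the 35 genes stood on the lists of response genes used here, which are not complete. Dio2, described above as cyclic AMP-responsive in brown fat, is not on the cyclic AMP list. Absence from a list therefore does not mark a gene as unresponsive. The lists were written from general knowledge, with earlier results of these data known, so the counts below are not independent of those results. The lists held 1 of the 35 genes under cyclic AMP response (Nr4a3), Saa3 under glucocorticoid response and 2 under acute phase (Saa3 and Serpina3i). They also held 1 each under early adipogenic regulators (Klf5) and nutrient transporters (Slc39a14). The other genes of these lists behaved as follows at clonal expansion against quiescence, where 34.4% of all genes tested rose and 34.4% fell. Of 30 other cyclic AMP response genes, 20 rose and 5 fell (median log2FC 1.54), and of 35 other glucocorticoid response genes 23 rose and 5 fell (1.09). The glucocorticoid response genes that rose include Mt2 (log2FC 5.94). It met the limits and was left out by symbol, so its rise follows from the limits. Among acute phase genes 21 of 34 rose and 10 fell (1.01), and among nutrient transporters 13 of 25 rose and 7 fell (0.34). The listed serpins and coagulation proteases outside the 35 went the other way more often, with 6 of 22 rising and 11 falling (-0.64). That list lacks Serpina3n and Serpina3m, and all 4 tested Serpina3 genes outside the 35 rose. Early adipogenic regulators also fell more often, with 8 of 26 rising and 14 falling (-0.46). On the list of G1/S genes, which holds none of the 35, 39 of 40 rose and 0 fell (1.73).

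Some of these other genes were high at both stages that followed the cocktail, and so missed the limits. Rgs2, a regulator of G protein signalling induced by cyclic AMP, had 2538 and 2361 pseudo-counts in proliferating cells, 2357 and 2230.3 in quiescent cells, 30029 and 24850.0 in clonal expansion, and 40097 and 36638 in differentiated cells. Zbtb16, a transcription factor induced by glucocorticoids, had 212 and 112 pseudo-counts in proliferating cells, 232 and 369 in quiescent cells, 5556 and 7177 in clonal expansion, and 15311 and 17999 in differentiated cells. Both were higher still at differentiation, unlike Nr4a3.

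The genes next to the 35 on the chromosome were looked at as well. Of 66 flanking genes that are not themselves among the 35, 46 were tested, and 24 rose (52.2%) and 10 fell (21.7%) at clonal expansion against quiescence, where the background was 34.4% in each direction. Their median log2FC was 0.61 against -0.01 for all genes tested. The flanking genes that rose include relatives of the 35 in the same clusters, namely Serpina3c, Serpina3g, Serpina3m, Sprr1b and Sprr2j-ps. They also include F7 and Sprr1b, which had at most 5.51 and 4.86 pseudo-counts in any library outside clonal expansion. These 2 passed the filter only through that stage. So did Atp4b (log2FC 1.83), with means of 5.68 at proliferation, 5.17 at quiescence and 9.93 at differentiation. Tpbpa (log2FC 5.94) and 4931406B18Rik (4.28) had means of 0 and 1.47 at quiescence. The filter may therefore add to the rises among flanking genes, and the share of rises was not tested. Between Mcf2l and Grk1 on chromosome 8 (chr8:12915893-13421949) lie 13 further genes, of which 10 were tested, 7 rose and 3 fell. F7 and Atp4b are among these rises. Tfdp1, a partner of E2F factors, rose (log2FC 1.71), as did the clotting factor F7 (3.47), while Lamp1 (-0.42) and Grtp1 (-2.38) fell. The 35 genes lay on 17 chromosomes, with 5 on chromosome 12 and 4 each on chromosomes 1 and 8.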

How the data were processed

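RNA-seq was measured in 8 libraries of 3T3-L1 cells at 4 stages. The deposited signal per gene is a pseudo-count, which the authors made with edgeR and relative log expression (RLE) factors, as the deposited table is labelled. The values are not plainly scaled read counts, since they include values such as 5.06e-09 (Sprr4 in clonal expansion 2). The submitters' processing notes name CASAVA 1.8.2 and edgeR, and mm9 as the build; the aligner and gene models are not given in the sources used here. At best 31.1% to 52.1% of low values lay within 0.05 of whole multiples of 1 step, so whole reads were not recovered and no count method was used.

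The 14647 genes that averaged at least 10 across all 8 libraries were fitted with limma 3.58.1 in R 4.3.3, on log2(value + 1) by stage with a mean-variance trend. Two-sided tests were adjusted by Benjamini-Hochberg over all of them at 0.05, with 4 residual and 5.78 prior degrees of freedom. The fit was also run on simulated data, and as the outcome is not given here, it is not used as support. Contrasts with clonal expansion chose the 35 genes, so their fitted values there are given as a description and not as a test. The counts cover all 35, of which 1 is not reported here by name. The 35 genes and the gene lists were chosen with earlier results of these data known, and families of relatives were written down after the genes were seen. Named genes were those with the highest peaks or ratios, the largest called changes, genes on a list, neighbours or relatives of each other and genes at the limits, with others by role; from lists, up to 3 with the largest change at clonal expansion were eligible.

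Experiment numbers were not taken to pair libraries, since deviations of same-numbered libraries were correlated at 0.0126 to 0.354 between stages and only 2 of 6 pairs of stages passed 0.1. Promoters were RefSeq's (GRCm38.p6), and transcript lengths and shared 100-base stretches came from GENCODE transcripts. Python 3.11.15, pandas 2.3.3, numpy 2.4.6 and matplotlib 3.10.9 were used. Alternatives were another pseudocount (5), no filter, quantile normalization, equal totals, a replicate block, no trend, other limits for choosing genes, leaving out each library and, chosen after seeing the data, counting only genes that averaged at least 10 outside clonal expansion.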

Additional observations from a re-analysis of the deposited data

How the results depend on the processing

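The number of genes meeting the limits was 84 with a fold of at least 4, 25 with a fold of at least 8, 40 and 25 with a mean of at least 100 and 500, 26 where every library had to meet them, 34 with an offset of 5, 28 with the same total per library, and 32 to 37 with 1 library left out. Of 62 called gene results, 43 kept their call in all 14 alternatives, 19 lost it in at least 1 and 0 reversed. Between quiescence and proliferation, 17 of the 35 genes changed (6 higher, 11 lower), against 8 (3 and 5) with no filter on low values; leaving out 1 library gave 13 to 16 (4 to 6 higher, 8 to 12 lower). The cause was not tested. Between differentiation and quiescence, 24 changed (15 higher, 9 lower), with 21 to 25 under other settings and 20 to 25 with 1 library left out (12 to 16 higher, 8 or 9 lower). Between differentiation and proliferation, 21 changed, with 17 to 22 when 1 library was left out; 12 were higher, against 7 with no filter, 7 with the same total per library and 7 to 12 with 1 library left out, and 9 to 12 were lower. With the experiment number as a replicate block, 6 were higher and 12 lower at quiescence against proliferation, 15 and 9 at differentiation against quiescence, and 12 and 10 at differentiation against proliferation. Over all genes, 3472 changed between quiescence and proliferation, against 1757 with no filter and 1304 without proliferation 2. Over all genes at differentiation against quiescence, 4892 were higher and 4825 lower, against 3795 and 6314 with the same total per library and 4410 and 5602 with quantile normalization. Alternatives for lists moved the 12 of 38 G2/M genes higher at clonal expansion against quiescence to 6 or 7 in 4 settings and the 3 macrophage markers higher to 0 or 1 in 4. With 2 libraries per stage, the small values outside the peak limit what could be detected: of the 35 genes, 9 had a mean under 10 at proliferation, 7 at quiescence and 6 at differentiation.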

Other observations

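Of the 14 genes that met the numeric limits and were left out by symbol, Mt1 and Mt2, metallothioneins that bind zinc and copper, were those with the most pseudo-counts. Mt1 had 15536 and 13447 pseudo-counts in proliferating cells, 19547 and 14639.7 in quiescent cells, 268621 and 270434 in clonal expansion, and 41702 and 38092 in differentiated cells, and Mt2 had 3781 and 3491 pseudo-counts in proliferating cells, 3883 and 3181 in quiescent cells, 220129 and 212264 in clonal expansion, and 21878 and 16648 in differentiated cells. Ramp3, which modifies receptors of the calcitonin family, had 52.7 and 50.4 pseudo-counts in proliferating cells, 30.0 and 11.8 in quiescent cells, 24309 and 19609 in clonal expansion, and 39.6 and 30.4 in differentiated cells. Il11, a cytokine of the interleukin 6 family, had 236 and 381 pseudo-counts in proliferating cells, 166 and 139 in quiescent cells, 5306 and 5222 in clonal expansion, and 62.7 and 60.8 in differentiated cells, and Wnt4, a secreted Wnt ligand, had 2513 and 2628 pseudo-counts in proliferating cells, 2327 and 1958 in quiescent cells, 25986 and 22963 in clonal expansion, and 207 and 217 in differentiated cells. In all 5 genes both clonal expansion libraries were above every other library. They were chosen on these values, so no test is given.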
